A study of Mus musculus with 10 samples.

Results

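The myogenic regulatory factors are 4 basic helix-loop-helix transcription factors, and their genes *Myod1*, *Myf5*, *Myf6* and *Myog* were taken by symbol from the deposited table of 55359 genes. All 4 were found there, each as 1 entry. C2C12 is a mouse myoblast line whose cells stop dividing and fuse into multinucleated myotubes when serum is reduced. According to the sample labels, both groups were transfected with 100 nM siRNA and differentiated for 4 days, in a medium rich in glucose that held 2% horse serum. The 5 si-Control libraries came from cells given a control siRNA, and the 5 si-*Fndc1* libraries from cells given an siRNA against *Fndc1*, the gene of a secreted protein with fibronectin type III domains. The design text of the series instead places the harvest at a set time after transfection. The methods differ from the labels in transfection reagent and number of libraries. The sources also disagree on serum, although the methods too give 2% horse serum for differentiation. C2C12 is a single line, and no label says whether the libraries of a group came from separate cultures, so p-values measure the spread between these libraries, which may be technical. The comparison addresses how the mRNA levels of the factors, and the balance between them, stood after *Fndc1* knockdown.

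The factors bind DNA as heterodimers with E proteins at short sites called E-boxes. *Myod1* and *Myf5* are known as determination genes that are already on in proliferating myoblasts. *Myog* is switched on at the start of differentiation, downstream of *Myod1* and of MEF2 factors, and is needed for it. *Myf6*, also called MRF4, is known mainly from late differentiation and adult fibres.

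The factors share their helix-loop-helix region, and the stretch below shows how alike the mRNAs are where they are most alike. It is the 90-base in-frame coding window in which the other 3 factors matched *Myod1* best, from the transcript models of the mouse build NCBIM37, written 5′ to 3′. Capitals mark the 58 bases that all 4 mRNAs share.
Myod1: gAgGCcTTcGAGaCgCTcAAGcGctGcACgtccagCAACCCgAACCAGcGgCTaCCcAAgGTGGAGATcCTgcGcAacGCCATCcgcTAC
Myf5: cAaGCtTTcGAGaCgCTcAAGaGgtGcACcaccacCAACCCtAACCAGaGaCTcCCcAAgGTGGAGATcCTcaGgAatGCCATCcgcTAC
Myf6: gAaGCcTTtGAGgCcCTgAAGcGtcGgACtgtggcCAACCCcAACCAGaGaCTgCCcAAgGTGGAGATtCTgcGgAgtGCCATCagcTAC
Myog: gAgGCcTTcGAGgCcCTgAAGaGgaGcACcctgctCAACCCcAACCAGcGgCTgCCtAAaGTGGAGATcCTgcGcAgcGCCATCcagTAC
Identity within this window ranged from 72.2% between *Myf5* and *Myog* to 82.2% between *Myod1* and *Myf5*. The longest exact match between any pair of the 4 transcripts was 26 bases, between *Myod1* and *Myf5*.

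The upstream sequence of *Myog* is shown because it is the stretch through which *Myod1* and MEF2 are known to act on *Myog*. RefSeq promoter sequence (build GRCm38.p6) was at hand for 2 of the 4 factors, *Myog* and *Myf5*. The 250 bases before the *Myog* start lie on the plus strand at chr1:134289754-134290003, with E-boxes (CANNTG, the same on both strands) and MEF2-type sites (CTANNNNTA with A or T at each N, searched on both strands) in capitals.
Myog upstream: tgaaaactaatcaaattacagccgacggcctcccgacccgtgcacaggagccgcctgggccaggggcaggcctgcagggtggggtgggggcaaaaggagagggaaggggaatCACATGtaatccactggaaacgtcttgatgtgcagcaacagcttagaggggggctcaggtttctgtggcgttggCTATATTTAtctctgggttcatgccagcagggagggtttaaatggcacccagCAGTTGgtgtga
It held 2 E-boxes, which start 138 and 12 bases before the gene start, and 1 MEF2-type match 64 bases before it, with no overlap between the motifs. Of 32851 upstream stretches of the same length, 66.2% held at least 1 E-box, 31.8% held at least 2, and 3.27% held a MEF2-type match. The same stretch of *Myf5* held neither motif.

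*Myog* was by far the most abundant of the 4 mRNAs in these differentiated cells, followed by *Myod1*, *Myf5* and *Myf6*. This order held in each of the 10 libraries, with no overlap between the levels of any pair of factors. Levels are given as FPKM, read fragments scaled to transcript length and library size, which can be compared between genes. In si-Control the mean FPKM was 253.5 ± 10.9 for *Myog*, 41.9 ± 0.896 for *Myod1*, 8.74 ± 0.296 for *Myf5* and 0.555 ± 0.161 for *Myf6* (SD, n = 5). Among the 13548 genes with a mean of at least 0.5 FPKM, which were the genes tested, *Myog* ranked 124th in si-Control, *Myod1* 1022nd and *Myf5* 4837th. *Myf6* had a mean of 0.486 FPKM over the 10 libraries and missed this filter.

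The si-Control libraries had total counts of 66771605 to 75995168, and the si-*Fndc1* libraries of 56332844 to 72839369. *Fndc1*, the targeted gene, fell from 27.8 ± 2.04 to 20.9 ± 1.70 FPKM (log2 fold change -0.40, SE 0.07, edgeR adjusted p = 0.000934), and was lower in 5 of 5 si-*Fndc1* libraries than in any si-Control library. With an offset for GC content and length, explained below, its log2 fold change was smaller, at -0.22 (edgeR adjusted p = 0.0104). Muscle genes were abundant in both groups, with *Des* (desmin) at 631.9 ± 17.0 and 609.4 ± 26.4 FPKM and *Myh3* (embryonic myosin) at 414.4 ± 49.1 and 366.2 ± 36.2 FPKM. Liver transcripts moved with the groups. The 12 hepatocyte markers reached a sum of 0.0443 to 5.88 FPKM in si-Control libraries but 46.4 to 168.0 FPKM in si-*Fndc1* libraries, with no overlap. These markers took at most 0.0322% of the counts of any library. The adipocyte, osteoblast, blood, endothelial and neuronal lists each summed to at most 12.1 FPKM in any library, and of their 6 tested genes 1 rose and 1 fell. Their part in the results below was not tested. Of the tested genes, 34.4% passed an adjusted p of 0.05, 17.3% as higher and 17.2% as lower in si-*Fndc1*.

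**Figure D1:**
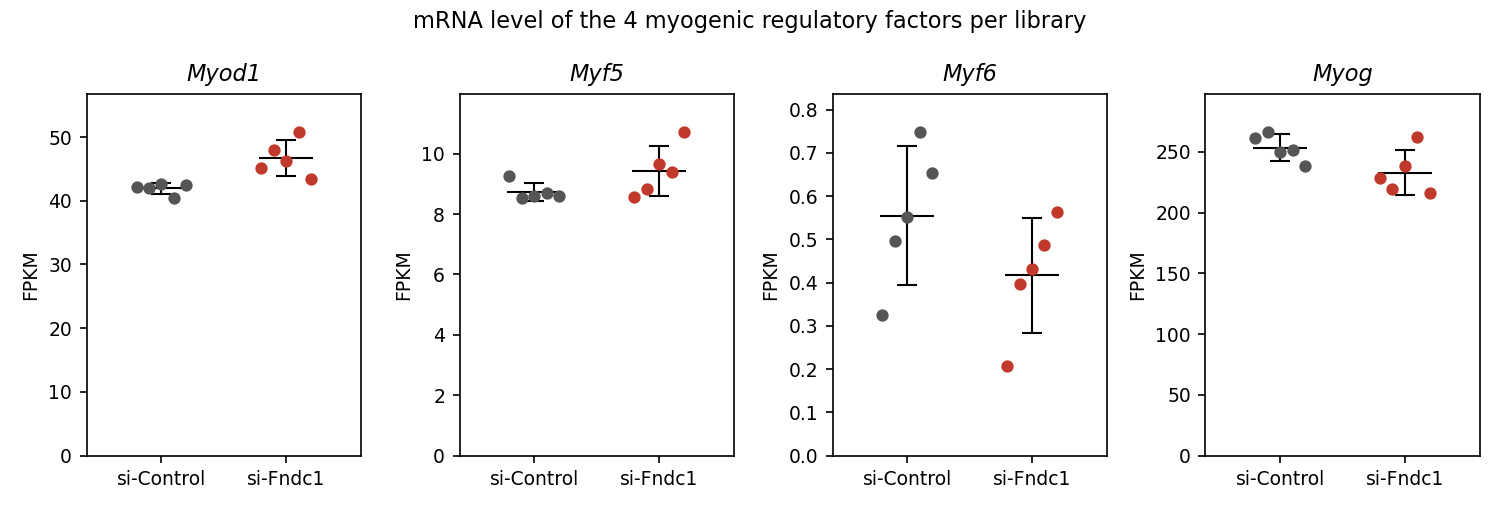
mRNA level (FPKM, linear axis from 0) of each factor in the 5 si-Control and 5 si-*Fndc1* libraries. Points are libraries in the order of their replicate numbers, and bars are mean ± SD. The *Myod1* groups do not overlap, 4 of 5 si-*Fndc1* libraries lie below all si-Control libraries for *Myog*, and the *Myf6* groups overlap widely.

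*Myod1* (chromosome 7, 46025898 to 46028523, plus strand, ENSMUSG00000009471) was the only factor that passed the test over all genes, and it rose slightly. The coordinates here and below are those of the deposited table, which names no build, while the submitters' processing notes name GRCm39. Its FPKM values in si-Control replicates 1 to 5 were 42.2, 42.0, 42.6, 40.4 and 42.5. In si-*Fndc1* replicates 1 to 5 they were 45.1, 48.0, 46.3, 50.7 and 43.4. All 5 si-*Fndc1* libraries lay above all si-Control libraries, although the gap between the nearest libraries was small. The mean rose from 41.9 ± 0.896 to 46.7 ± 2.83 FPKM, a ratio of 1.11. The log2 fold change was 0.16 (SE 0.04, 95% interval 0.06 to 0.26, edgeR adjusted p = 0.0162). The exact two-sided permutation test of FPKM gave p = 0.00794, the smallest that 5 against 5 libraries can give, and the FPKM of 25.1% of all tested genes did not overlap between the groups either. The median size of the log2 change among all genes that passed was 0.29, above that of *Myod1*. After quantile normalization of log2(FPKM + 1), the change of *Myod1* was 0.10 with a limma adjusted p of 0.146, and it no longer passed.

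*Myog* (chromosome 1, 134217727 to 134220286, plus strand, ENSMUSG00000026459) had lower values in si-*Fndc1*, by an amount that did not pass the test. Its FPKM values in si-Control replicates 1 to 5 were 261.8, 266.1, 249.5, 251.6 and 238.5. In si-*Fndc1* replicates 1 to 5 they were 228.3, 219.1, 238.2, 261.8 and 216.2. Of the si-*Fndc1* libraries 4 lay below all si-Control libraries, and replicate 4 lay among the highest of the control libraries. The mean was 253.5 ± 10.9 in si-Control and 232.7 ± 18.4 FPKM in si-*Fndc1*. The log2 fold change was -0.12 (SE 0.06, 95% interval -0.24 to 0.01, edgeR adjusted p = 0.137), and the exact permutation test gave p = 0.0714. Without si-*Fndc1* replicate 4 the log2 fold change was -0.16 and passed (edgeR adjusted p = 0.0229), so within this fit the call turned on that library. After quantile normalization of log2(FPKM + 1) the log2 fold change was -0.26 and passed as well (limma adjusted p = 0.00378). *Myog* carried 20191 to 33101 reads per library, and counting error alone came to 0.575% of its mean level in si-Control and 0.613% in si-*Fndc1*.

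*Myf5* (chromosome 10, 107318769 to 107321995, minus strand, ENSMUSG00000000435) had slightly higher values in si-*Fndc1*, without passing the test. Its FPKM values in si-Control replicates 1 to 5 were 9.26, 8.54, 8.60, 8.69 and 8.61. In si-*Fndc1* replicates 1 to 5 they were 8.57, 8.84, 9.64, 9.39 and 10.7. The groups overlapped, with 3 si-*Fndc1* libraries above all si-Control libraries. The mean was 8.74 ± 0.296 and 9.43 ± 0.832 FPKM. The log2 fold change was 0.12 (SE 0.06, 95% interval -0.02 to 0.25, edgeR adjusted p = 0.181), and the exact permutation test gave p = 0.0794.

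*Myf6* (chromosome 10, 107328714 to 107330598, minus strand, ENSMUSG00000035923), the neighbour of *Myf5* on the same strand, was barely detected. Its FPKM values in si-Control replicates 1 to 5 were 0.324, 0.495, 0.552, 0.747 and 0.654. In si-*Fndc1* replicates 1 to 5 they were 0.207, 0.397, 0.431, 0.487 and 0.564. These values came from 35 to 77 reads per si-Control library and from 21 to 50 reads per si-*Fndc1* library. For the lowest library, the 21 reads have an exact Poisson 95% interval of 13.0 to 32.1, which covers counting error only. The mean was 0.555 ± 0.161 and 0.417 ± 0.133 FPKM, and the groups overlapped. In the fit without a filter on low values, in which 14.4% of 28952 genes passed, the log2 fold change was -0.40 (SE 0.31, 95% interval -1.07 to 0.27, edgeR adjusted p = 0.413). The exact permutation test gave p = 0.198. The SD between libraries was 29.0% of the mean in si-Control and 31.96% in si-*Fndc1*, where counting error alone would give 13.4% and 15.8%.

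The 4 factors together summed to 304.7 ± 10.8 FPKM in si-Control and 289.3 ± 20.5 FPKM in si-*Fndc1*, and the ranges of 290.3 to 317.1 and 270.8 to 322.4 FPKM overlapped. The make-up of that sum differed more clearly than its size. *Myog* took 83.2 ± 0.686% of it in si-Control and 80.4 ± 0.820% in si-*Fndc1*. The share of *Myod1* was 13.8 ± 0.596% and 16.2 ± 0.691%. The ranges of both shares did not overlap between the groups, and neither did the FPKM of 25.1% of all tested genes. These 2 shares made up nearly the whole sum and moved against each other, so they are close to 1 observation. *Myf5* took 2.87 ± 0.110% and 3.27 ± 0.405%, and *Myf6* 0.183 ± 0.0571% and 0.144 ± 0.0478%, with overlapping ranges. These shares are a description without a test.

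The ratio of *Myog* to *Myod1* within a library does not depend on how libraries are scaled to each other, and it was lower in si-*Fndc1*. *Myog* stood at 6.20, 6.34, 5.86, 6.23 and 5.61 times the FPKM of *Myod1* in si-Control replicates 1 to 5. In si-*Fndc1* replicates 1 to 5 it stood at 5.06, 4.56, 5.14, 5.16 and 4.99 times. Every si-*Fndc1* library had a lower ratio than every si-Control library. The FPKM of *Myod1* alone did not overlap either, as with 25.1% of all tested genes. How often the ratios of other gene pairs separate the groups was not tested. The log2 ratio of *Myog* to *Myod1* was 2.60 ± 0.07 in si-Control and 2.32 ± 0.07 in si-*Fndc1*, a difference of -0.28 (SE 0.05). The exact two-sided permutation test gave p = 0.00794, or 0.0476 after Benjamini-Hochberg adjustment over the 6 pairs of factors. That adjusted p was 0.0952 in 7 of the 10 comparisons that left out 1 library, for which the smallest exact p is 0.0159 before adjustment, and every difference kept its sign. si-*Fndc1* replicate 4, which held *Myog* at the control level, also held the highest *Myod1* level, and its ratio of 5.16 lay with those of its group.

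The ratio of *Myog* to *Myf5* was also lower in si-*Fndc1*, at 24.8 ± 2.92 against 29.0 ± 1.32. The log2 difference was -0.23 (SE 0.08, exact permutation p = 0.0159, adjusted p = 0.0476). It was lowest in si-*Fndc1* replicate 5, at 20.2, and the nearest libraries of the groups had 27.9 and 27.7, so that the groups overlapped. The ratio of *Myod1* to *Myf5* was 4.80 ± 0.184 and 4.99 ± 0.584, with a log2 difference of 0.05 (SE 0.08, exact permutation p = 0.595, adjusted p = 0.595). The 3 ratios to *Myf6* rest on few reads, and their log2 differences of 0.31 to 0.59 had exact permutation p-values of 0.119 to 0.373.

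**Figure D2:**
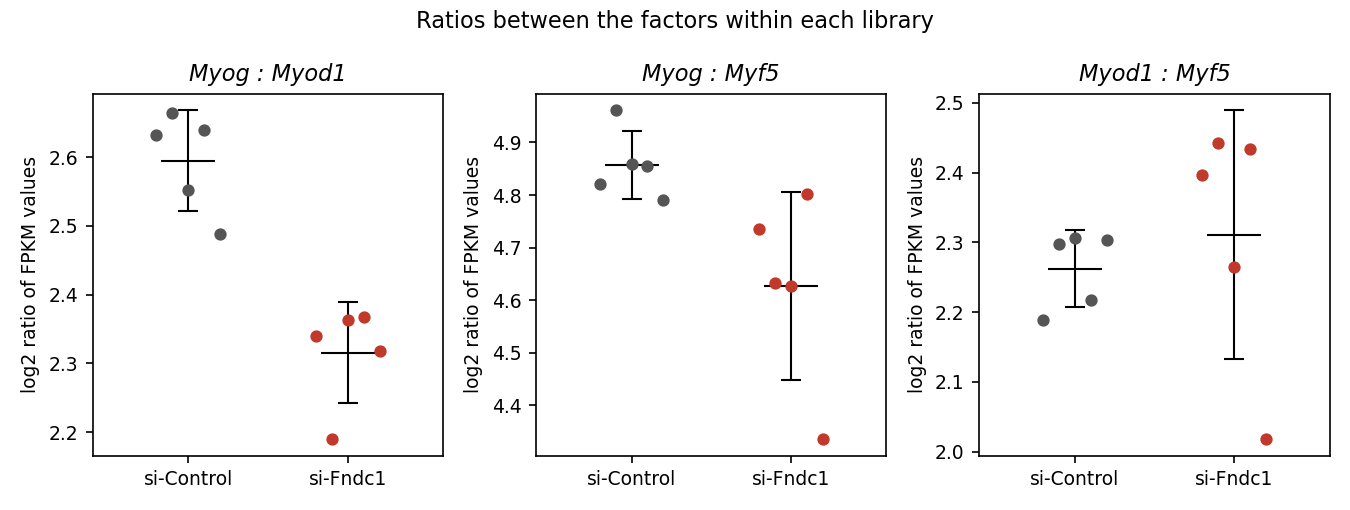
log2 of the ratio of the FPKM values of a pair of factors within each library (axes do not start at 0), with points for libraries and bars for mean ± SD. The *Myog* to *Myod1* ratio lies at 2.49 to 2.66 for si-Control and at 2.19 to 2.37 for si-*Fndc1*, while the *Myod1* to *Myf5* ratio overlaps between the groups.

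Fold changes moved with the GC content of the transcripts in this comparison, and the factors differ widely in GC content. Over the 11185 tested genes with a known GC content, Spearman's rho between log2 fold change and GC content was -0.523, a correlation across genes, which are not independent replicates. GC content was 59.1% for *Myod1*, 54.8% for *Myog*, 46.6% for *Myf6* and 41.6% for *Myf5*. With an offset for GC content and length in each library, 22.7% of the genes passed. The rise of *Myod1* was then 0.24 (edgeR adjusted p = 0.00146), and the fall of *Myog* was -0.18 and passed (edgeR adjusted p = 0.0217). *Myf5* changed direction, to -0.22 (edgeR adjusted p = 0.0153), and *Myf6* had -0.70 (edgeR adjusted p = 0.168). The lower *Myog* to *Myod1* ratio thus held with and without the offset, at -0.42 and -0.28 on the log2 scale. The difference in the *Myog* to *Myf5* ratio did not hold, with 0.04 on the log2 scale under the offset (exact permutation, adjusted p = 0.619), and neither did the direction of *Myf5*. Under the offset the ratios of *Myod1* to *Myf5* (0.46, exact permutation, adjusted p = 0.0238) and of *Myod1* to *Myf6* (0.95, adjusted p = 0.0317) were higher in si-*Fndc1* and passed, which they did not without it.

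**Figure D3:**
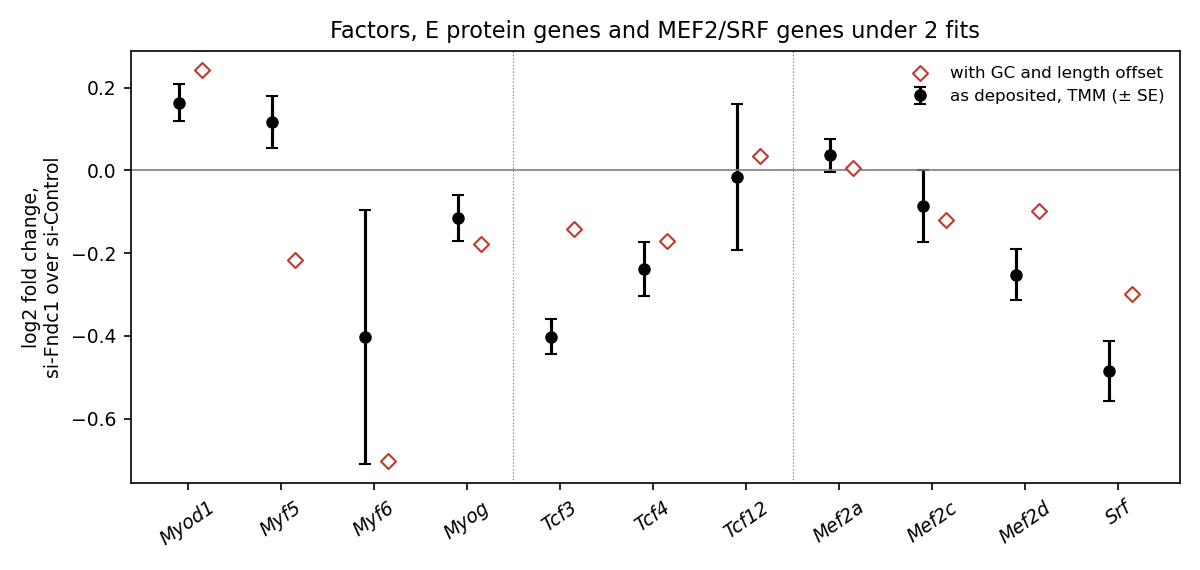
log2 fold change of si-*Fndc1* over si-Control for the factors, their E protein partners and the MEF2 and SRF genes. Filled points with bars are the edgeR estimate ± SE and open diamonds the estimate with the GC and length offset. *Myod1* is above 0 and *Myog* below 0 in both fits, and *Myf5* changes sign.

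Of the 116 genes on the lists of partners, regulators and targets, 103 were tested and 43.7% of them passed, 15 as higher and 30 as lower, against 34.4% of all tested genes. Their median log2 fold change was -0.07, and that of all tested genes was 0.00. With the GC and length offset 27 of the 103 passed, 10 as higher and 17 as lower, against 22.7% of all genes in that fit.

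Of the 3 genes of E proteins, the partners with which the factors bind DNA, 2 fell and 0 rose. The shares over all tested genes were 17.2% lower and 17.3% higher. *Tcf3*, which encodes E12 and E47, fell from 21.6 ± 0.847 to 16.3 ± 0.746 FPKM (log2 fold change -0.40, SE 0.04, edgeR adjusted p = 7.83e-05). *Tcf4* fell from 5.35 ± 0.515 to 4.51 ± 0.248 FPKM (log2 fold change -0.24, SE 0.07, edgeR adjusted p = 0.0162). With the offset the falls were -0.14 for *Tcf3* and -0.17 for *Tcf4*, and the latter no longer passed (edgeR adjusted p = 0.0322 and 0.0599). *Tcf12* was at 7.78 ± 2.16 and 7.65 ± 1.46 FPKM, with a log2 fold change of -0.02 whose sign turned when si-Control replicate 4, with 11.6 FPKM, was left out. Summed over the list, E protein genes were at 33.3 to 37.0 FPKM in si-Control and 27.1 to 29.8 FPKM in si-*Fndc1*.

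Of the 12 tested genes whose products restrain basic helix-loop-helix factors, 1 rose and 3 fell, against 17.3% and 17.2% of all tested genes. *Id2*, an inhibitor that captures E proteins, rose from 9.31 ± 0.549 to 10.8 ± 0.341 FPKM (log2 fold change 0.23, SE 0.05, edgeR adjusted p = 0.00596), but was at -0.06 with the offset (edgeR adjusted p = 0.590). The genes that fell were *Bhlhe41* (log2 fold change -0.22), *Twist2* (-0.41) and the Notch target *Heyl* (-0.22). With the offset 0 genes of this list rose and 2 fell, where 22.7% of all genes passed in either direction. Those 2 were *Bhlhe41* (-0.24, edgeR adjusted p = 0.0244) and *Snai2* (-0.22, edgeR adjusted p = 0.0120), the latter named after its values were seen. *Snai2* had 0.10 without the offset and did not pass. *Twist2* and *Heyl* no longer passed with it (edgeR adjusted p = 0.101 and 0.420).

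Upstream of the factors, 0 of 12 tested genes rose and 3 fell, against 17.3% and 17.2% of all tested genes. With the offset 0 rose and 1 fell. *Tead4*, named after its values were seen, fell from 20.0 ± 0.619 to 17.3 ± 1.37 FPKM (log2 fold change -0.20, SE 0.05, edgeR adjusted p = 0.0166) and had -0.02 with the offset (edgeR adjusted p = 0.831).

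Of the 4 tested MEF2 and SRF genes, whose products act together with the factors on muscle promoters, 0 rose and 2 fell. The shares over all tested genes were 17.3% and 17.2%. *Srf*, the serum response factor, fell from 17.6 ± 1.56 to 12.5 ± 0.928 FPKM (log2 fold change -0.48, SE 0.07, edgeR adjusted p = 0.000524), and by 0.30 with the offset. *Mef2d* fell from 36.2 ± 2.49 to 30.2 ± 2.37 FPKM (log2 fold change -0.25, SE 0.06, edgeR adjusted p = 0.00949), but had -0.10 with the offset (edgeR adjusted p = 0.187). *Mef2a* (log2 fold change 0.04) and *Mef2c* (-0.09) did not pass, and *Mef2b*, at 0.0991 and 0.111 FPKM, was not tested.

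Of 16 tested chromatin cofactors of the factors, 1 rose and 7 fell, against 17.3% and 17.2% of all tested genes. With the offset 0 rose and 5 fell, where 22.7% of all genes passed in either direction. Of those 5, *Crebbp*, *Ep300* and *Setd7* also passed without the offset, and *Hdac1* and *Ezh2* did not. All but *Crebbp* are named here after their values were seen. *Crebbp*, an acetyltransferase that acts as a coactivator of MyoD, fell from 4.09 ± 0.326 to 2.45 ± 0.158 FPKM (log2 fold change -0.73, SE 0.06, edgeR adjusted p = 2.84e-05). *Hdac5*, a histone deacetylase that represses MEF2, had a log2 fold change of -0.31, which was -0.01 with the offset (edgeR adjusted p = 0.908). *Kat2b*, the acetyltransferase PCAF, rose by 0.12 on the log2 scale, and 8 of the 10 fits that left out 1 library lost that call. Of 6 tested genes acting on the factors' mRNA or protein stability, 1 rose and 2 fell (17.3% and 17.2% of all tested genes). They were *Elavl1*, whose product HuR stabilizes *Myog* and *Myod1* mRNA (log2 fold change 0.14), *Khsrp*, whose product promotes mRNA decay (-0.48), and *Huwe1*, a ubiquitin ligase of MyoD (-0.26). With the offset *Khsrp* alone of these 3 passed, at -0.30, while *Elavl1* had 0.08 (edgeR adjusted p = 0.108) and *Huwe1* -0.05 (edgeR adjusted p = 0.176).

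Target genes of the factors split evenly by direction, with 10 of 36 higher, 10 lower and 16 that did not pass. Over all tested genes 17.3% passed as higher and 17.2% as lower, both smaller shares than on this list. The median log2 fold change of the list was 0.06. *Mylpf*, a fast myosin light chain, rose from 1971 ± 94.3 to 2619 ± 101.0 FPKM (log2 fold change 0.42, SE 0.04, edgeR adjusted p = 4.96e-05). *Ckm*, muscle creatine kinase, rose from 66.3 ± 3.29 to 86.2 ± 4.88 FPKM (log2 fold change 0.39, SE 0.05, edgeR adjusted p = 0.000201). *Chrng*, the fetal gamma subunit of the acetylcholine receptor, fell from 128.0 ± 7.32 to 88.2 ± 3.66 FPKM (log2 fold change -0.53, SE 0.05, edgeR adjusted p = 2.93e-05). *Musk*, the receptor kinase of the neuromuscular junction, fell from 14.7 ± 0.893 to 11.3 ± 0.932 FPKM (log2 fold change -0.37, SE 0.06, edgeR adjusted p = 0.00136). These 4 genes kept their direction and passed with the offset.

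Some further targets are named after their values were seen and because they differed in direction, so they describe the list and support no pattern. Among acetylcholine receptor subunits, *Chrnd* (log2 fold change -0.28) and *Chrnb1* (-0.13) fell with *Chrng*, while *Chrna1* rose (0.19), but *Chrna1* had 0.09 with the offset (edgeR adjusted p = 0.0784). Of the fusion genes, *Mymk* (myomaker) rose by 0.26 and *Mymx* (myomixer) fell by 0.17 on the log2 scale. *Mymk* did not pass with the offset (0.20, edgeR adjusted p = 0.116). *Mymx* passed with the offset, with a larger fall (-0.27, edgeR adjusted p = 0.00205), but its call was lost in 12 of 22 alternatives. The troponin gene *Tnni2* rose by 0.60. *Cdkn1a*, the cell cycle inhibitor p21, fell from 353.6 ± 14.3 to 314.6 ± 13.4 FPKM (log2 fold change -0.16), and *Cdh15*, M-cadherin, by 0.18 on the log2 scale. With the offset *Cdkn1a* had -0.07 (edgeR adjusted p = 0.215) and *Cdh15* 0.03. With the offset 8 of the 36 targets passed as higher and 5 as lower, where 22.7% of all genes passed in either direction. Some of these, such as *Des*, did not pass without it.

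**Figure D4:**
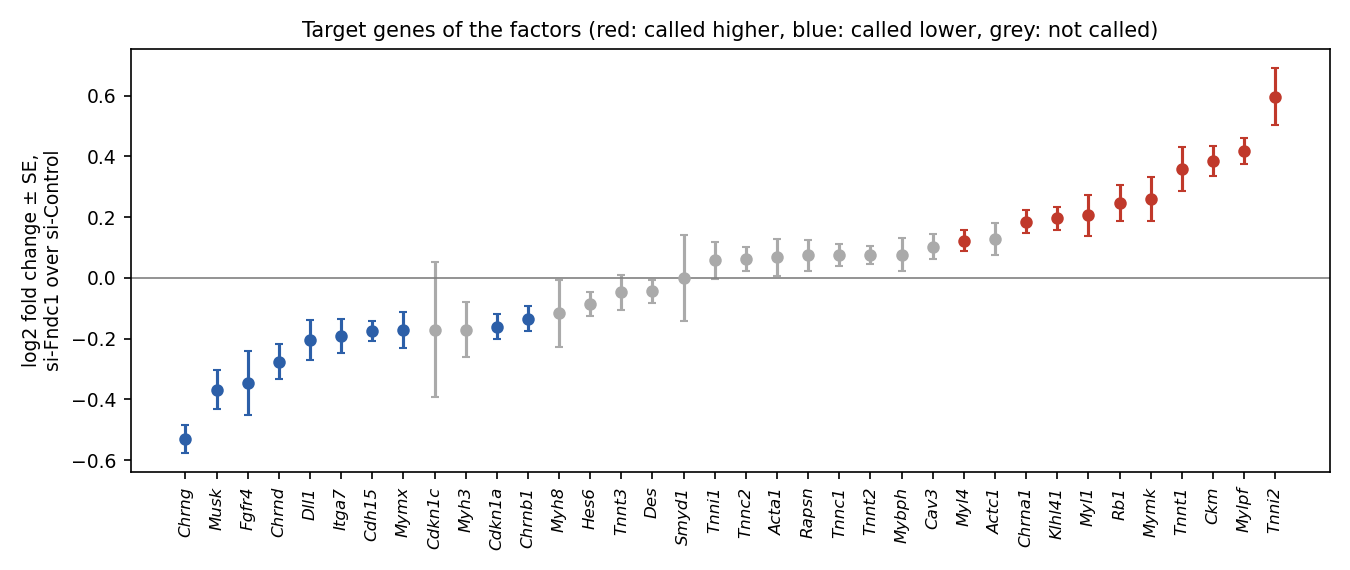
log2 fold change ± SE (edgeR, si-*Fndc1* over si-Control) of the 36 target genes of the factors, in order of size. 10 genes passed as lower (blue), 10 as higher (red) and 16 did not pass (grey), with *Chrng* at the low end and *Tnni2* at the high end.

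Among 6 tested genes of quiescent and reserve cells, the undifferentiated cells left in such cultures, 0 rose and 2 fell, *Spry1* and *Heyl* (both -0.22), and neither passed with the offset. Over all tested genes 17.3% passed as higher and 17.2% as lower. Of 10 proliferation genes 2 rose, *Ccna2* (log2 fold change 0.44) and *Cdk1* (0.41), and 0 fell. The median of that list was -0.05, and with the offset 2 of its genes passed as higher and 1, *Pcna*, as lower (-0.28, edgeR adjusted p = 0.00837, named after its values were seen). In bulk libraries fewer cells of a type and less mRNA per cell cannot be told apart, for the factors as for these lists.

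*Myf5* and *Myf6* lie 6719 bases apart, and no other gene of the table overlaps any of the 4 factors. Within 100 kb there were 16 other genes, of which 8 were tested and 3 passed, a share near the 34.4% of all tested genes. *Ppfia4*, a liprin gene 4235 bases from *Myog* on the opposite strand, fell from 8.39 ± 1.01 to 6.54 ± 0.942 FPKM (log2 fold change -0.35, SE 0.11, edgeR adjusted p = 0.0249). 1700025L06Rik, a long non-coding RNA 27101 bases from *Myod1*, rose from 1.55 ± 0.207 to 1.99 ± 0.184 FPKM (log2 fold change 0.37, SE 0.12, edgeR adjusted p = 0.0316). *Chil1*, 99808 bases from *Myog*, rose by 0.53 on the log2 scale from 0.591 FPKM. The call was lost for *Ppfia4* in 9 of 22 alternatives, for 1700025L06Rik in 8 of 18 and for *Chil1* in 3 of 21.

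As a description, the genes whose log2 CPM ran most like each factor over the 10 libraries were listed, from 13494 tested genes with a symbol. For *Myod1* they were *Ddb2* (Pearson r 0.943), *F2* (0.940) and *Cndp2* (0.936), with r of 0.849 to 0.855 for the deviations from the group means. *F2* encodes prothrombin, a liver protein, and had 1.02 to 1.28 FPKM in si-Control and 1.19 to 2.36 FPKM in si-*Fndc1*. Whether *F2* followed the liver transcripts was not tested. In si-Control replicate 1 *F2* stood at 1.17 FPKM, and the sum of hepatocyte markers there was 0.0561 FPKM. Within si-Control *F2* was lowest in replicate 3 (1.02 FPKM, sum 4.70 FPKM) and highest in replicate 5 (1.28 FPKM, sum 5.88 FPKM). Its highest value fell in si-*Fndc1* replicate 4 (2.36 FPKM, sum 168.0 FPKM), the library with the highest *Myod1* level. The sum in si-*Fndc1* replicate 2 was nearly the same, at 167.6 FPKM, with *F2* at 2.21 FPKM. Within si-*Fndc1*, *F2* was lowest in replicate 5 (1.19 FPKM, sum 46.4 FPKM), which also had the lowest *Myod1* level of that group. For *Myog* they were *Trib3* (0.941), *Gm12933* (0.923) and *Poc1b* (0.903). For *Myf5* they were *Cwf19l2* (0.960), *Rspry1* (0.914) and *Gm10145* (0.912), and for *Myf6* *Inpp5e* (0.915), *Suclg2* (0.906) and *Emp2* (0.900). No gene of the lists around the factors was among these 12.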

How the data were processed

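RNA of 10 C2C12 libraries was sequenced, 5 si-Control and 5 si-*Fndc1*, grouped by their labels. The authors deposited raw read counts per gene and, beside each count, its FPKM (scaled by length and depth; 0.0001 stands for no read). The methods name TopHat, mm10 and htseq-count, the design text STAR and mm9, and the submitters' processing notes cutadapt 1.9, FastQC and GRCm39. Strand and FPKM calculation were not given in the sources used here.

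Counts were tested with edgeR 4.0.16 (quasi-likelihood, TMM, R 4.3.3) for genes with a mean of at least 0.5 FPKM, with Benjamini-Hochberg adjustment over all tested genes. A gene passed at an adjusted p under 0.05. *Myf6* was read from the fit without filter. Intervals use edgeR's degrees of freedom. Single levels and log2 ratios of FPKM were compared by exact two-sided permutation tests (scipy 1.17.1) over 252 assignments. Alternatives were DESeq2 1.42.0, limma 3.58.1 on log2(FPKM + 1), log2(FPKM + 0.1) and its quantile-normalized form, other scalings and filters, the replicate number as a block, each library left out, and an offset for GC content and transcript length (splines with 5 degrees of freedom per library). GC content came from NCBIM37 transcripts for 82.6% of tested genes. Same-numbered libraries did not deviate together. The fits were tested on simulated data.

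The factors and the gene lists were chosen with earlier results of these data known. Named are the factors and *Fndc1*, all measured E protein, MEF2 and SRF genes, the 2 genes with the smallest p per direction on each other list, the 3 genes most like each factor (log2 CPM with a prior count of 2), and genes within 100 kb, of which those that passed are given by name. Other genes are said to be named after their values were seen. Hepatocyte, adipocyte, osteoblast, blood, endothelial and neuronal marker lists were summed per library. Some genes that the rule for named genes covers are not reported here.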

Additional observations from a re-analysis of the deposited data

Results flagged for a closer look

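Some values stood far from the 4 others of their group by Dixon's test, 12 of 120 groups of 5 examined, where chance flags about 1 in 20 groups. Among the factors, *Myod1* was lowest in si-Control replicate 4, at 40.4 FPKM against 42.0 to 42.6 in the others, and *Myf5* was highest in si-Control replicate 1, at 9.26 FPKM against 8.54 to 8.69. The log2 ratio of *Myog* to *Myod1* was lowest in si-*Fndc1* replicate 2, at 2.19 against 2.32 to 2.37. The log2 ratio of *Myf5* to *Myf6* was highest in si-*Fndc1* replicate 1, at 5.37 against 4.25 to 4.48, where *Myf6* had 21 reads.

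Among genes that act with the factors, *Tcf12* was at 11.6 FPKM in si-Control replicate 4 against 6.43 to 7.08, *Mef2c* at 12.8 FPKM in si-*Fndc1* replicate 1 against 9.55 to 10.2, and *Mef2d* at 31.8 FPKM in si-Control replicate 2 against 36.5 to 38.0. The same library, si-Control replicate 2, was the lowest of its group for *Spry1*, at 16.2 FPKM against 18.1 to 18.8. *Kat2b* was at 15.8 FPKM in si-*Fndc1* replicate 5 as the highest of its group.

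Among genes that ran like a factor, *Inpp5e* (3.04 FPKM) and *Suclg2* (3.29 FPKM) were lowest in si-Control replicate 1, the control library with the least *Myf6*. *Poc1b* was lowest in si-Control replicate 5, at 3.04 FPKM, the control library with the least *Myog*.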

How the results depend on the processing

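The rise of *Myod1* kept its direction under all 22 alternatives (0.10 to 0.24) and its call under all but the quantile normalization (0.10, limma adjusted p = 0.146) and the replicate block (0.16, edgeR adjusted p = 0.0668). *Myog* was below 0 under all 22 (-0.26 to -0.0866) and passed with the GC and length offset (-0.18), that offset with the block (-0.18), quantile normalization (-0.26) and without si-*Fndc1* replicate 4 (-0.16, in a range of -0.16 to -0.0866 without 1 library). *Myf5* turned to -0.22 with the offset, with and without the block. *Myf6* stayed below 0 and did not pass in any of 20.

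The log2 ratio of *Myog* to *Myod1* had the same sign in all 14 alternatives (-0.42 to -0.25). Leaving out 1 library gave -0.31 to -0.25 for *Myog* to *Myod1*, -0.27 to -0.16 for *Myog* to *Myf5*, 0.02 to 0.12 for *Myod1* to *Myf5*, 0.08 to 0.50 for *Myog* to *Myf6*, 0.36 to 0.77 for *Myod1* to *Myf6* and 0.34 to 0.74 for *Myf5* to *Myf6*. With 4 against 5 libraries the smallest exact permutation p is 0.0159, and the adjusted p of *Myog* to *Myod1* was 0.0476 to 0.0952. With the offset the differences were 0.0391 for *Myog* to *Myf5*, 0.46 for *Myod1* to *Myf5* and 0.95 for *Myod1* to *Myf6*, of which the last 2 passed, and with 1 added to each FPKM *Myod1* to *Myf6* had 0.28 and passed.

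Same-numbered libraries had deviations that correlated at -0.06 to 0.06, and 1 of 5 numbers correlated best with itself. No pairing by number showed in these deviations, which cannot tell whether cultures were handled in pairs. In the sign-permutation with the replicate block the smallest p is 0.0625, and the differences of -0.28 for *Myog* to *Myod1* and -0.23 for *Myog* to *Myf5* had an adjusted p of 0.075. With the block 3572 genes were called, and without it 4663.

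Genes called numbered 4663, 2536 with the offset (4244 without it over the same tested genes, a comparison chosen after seeing the data), 1645 with offset and block, and 4000 to 4627 without 1 library. On the lists around the factors 45 passed, 27 with the offset and 40 to 43 without 1 library. Named genes whose sign turned were *Id2* (-0.0550 with the offset, -0.0542 with the block too), *Cdh15* (0.0269 in both), *Cwf19l2* (-0.0423 and -0.0445), *Emp2* (0.0320 and 0.0316) and *Tcf12* (0.0343 and 0.04996, 0.000882 under upper quartile scaling, 0.000686 under quantile normalization, and -0.11 to 0.17 without 1 library). In these alternatives 914 of 1052 values for the 49 named genes beside the factors kept direction and side of the threshold. The cause was not tested.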
